A study of Mus musculus with 56 samples.

Results

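The regions described here were bound by the NF-kB subunit p65 in mouse bone marrow-derived macrophages (BMDMs) when IL-4 pretreatment (IL-4 PT) had preceded LPS, with no p65 peak called in any other condition. Peaks of the 8 p65 peak lists that overlapped by at least 1 bp were merged into 51419 regions. A merged region was kept if both IL-4 PT/LPS lists had a peak in it and none of the 6 other lists did. The members were thus chosen by the p65 peak calls themselves, and their p65 scores are given as a description. This left 6542 regions, or 12.7% of all merged regions and 21.6% of the 30262 regions with a peak in both IL-4 PT/LPS lists. All cells were wild-type, from animals of 8 to 12 weeks, grown from marrow for 6 days with L929 cell supernatant. The 4 conditions were ctrl/ctrl (ctrl_ctrl in the labels, no stimulus), IL-4 PT/ctrl (24hIL4_ctrl, 20 ng/ml of IL-4 for 24 hr), ctrl/LPS (ctrl_1hLPS, 100 ng/ml of LPS for 1 hr) and IL-4 PT/LPS (24hIL4_1hLPS, IL-4 for 24 hr and then LPS for 1 hr), each with 2 samples per antibody. The LPS dose is that of the labels, whereas the study's methods give 100 nM. p65 and the elongation- and initiation-linked forms of RNA polymerase II (RNAPII-pS2 and RNAPII-pS5) were profiled by ChIP-seq, which sequences the DNA pulled down with a protein, in all 4 conditions. RNAPII-pS5, PU.1, p300, H3K27Ac, HDAC1, HDAC2 and HDAC3 were profiled in a second experiment in 2 untreated samples and 2 samples given IL-4 for 1 hr, without LPS. The files hold 1 list of peaks per sample with a score per peak, and no reads or coverage, so the depth is unknown and the absence of a peak means that none was called. Samples of one group are labelled as replicates, and the study's figure legends call them independent biological replicates. Whether that means separate cultures is not stated there. Where they were not separate cultures, the p-values measure technical spread only.

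p65 is the transactivating subunit of the NF-kB dimer that is held in the cytoplasm by inhibitors of the IkB family. LPS is sensed by Toll-like receptor 4, the inhibitors are then degraded, and p65 enters the nucleus and binds enhancers and promoters of inflammatory genes. IL-4 acts through the transcription factor STAT6 and sets the alternative activation program of macrophages. PU.1 is the lineage-determining factor that marks macrophage enhancers, p300 is a histone acetyltransferase recruited to active enhancers, H3K27Ac is the acetylation found at active enhancers and promoters, and HDACs remove acetyl groups. RNAPII phosphorylated at serine 5 of its tail repeat is found at sites of initiation and pausing, enhancers included, and the form phosphorylated at serine 2 at sites of elongation.

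Reference sequence of 5 of these regions is shown, because the results below turn on them and they hold different motifs. Each run is the middle 200 bp of a region on the plus strand of mm10, in lower case, and capitals mark the matches to the searched motifs. The Edn1 region (chr13:42292815-42293394) had the highest p65 score, by the lower of its 2 samples, and holds the EGR motif. The Itga1 region (chr13:115148352-115148862) was the next by that score and holds the STAT6-type motif. The Il10rb region (chr16:91422521-91422923) holds the NF-kB consensus, on the minus strand. The Flt1 region (chr5:147778610-147779134) holds the PU.1 motif and was one of few strong regions with PU.1 peaks. The Gm20098 region (chr17:52168119-52168738), which had the largest RNAPII-pS2 rise, holds the STAT6-type motif.
Edn1: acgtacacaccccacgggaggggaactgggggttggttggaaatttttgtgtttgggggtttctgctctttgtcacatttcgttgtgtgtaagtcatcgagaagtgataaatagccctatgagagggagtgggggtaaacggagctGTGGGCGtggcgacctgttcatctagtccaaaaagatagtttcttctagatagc
Itga1: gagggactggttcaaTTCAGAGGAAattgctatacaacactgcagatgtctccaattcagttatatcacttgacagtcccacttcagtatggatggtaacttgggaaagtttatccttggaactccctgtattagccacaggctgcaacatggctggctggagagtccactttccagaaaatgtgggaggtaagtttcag
Il10rb: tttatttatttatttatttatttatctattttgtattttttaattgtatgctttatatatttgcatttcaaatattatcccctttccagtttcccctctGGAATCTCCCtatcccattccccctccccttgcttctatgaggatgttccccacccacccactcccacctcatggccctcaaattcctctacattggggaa
Flt1: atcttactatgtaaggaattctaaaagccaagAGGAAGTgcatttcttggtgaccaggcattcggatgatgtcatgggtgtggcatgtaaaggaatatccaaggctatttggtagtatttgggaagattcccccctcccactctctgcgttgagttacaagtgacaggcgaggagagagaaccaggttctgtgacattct
Gm20098: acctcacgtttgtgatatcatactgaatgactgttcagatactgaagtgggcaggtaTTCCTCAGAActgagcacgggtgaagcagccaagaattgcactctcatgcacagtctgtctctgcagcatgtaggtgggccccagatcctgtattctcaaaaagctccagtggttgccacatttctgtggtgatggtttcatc

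The group was large next to its counterparts. Regions with a peak in both ctrl/LPS lists and in no other list numbered 840, those of IL-4 PT/ctrl alone 76 and those of ctrl/ctrl alone 111. A further 7693 regions had a peak in both lists of both LPS conditions and in neither condition without LPS (called LPS-shared regions here), and 3971 had a peak in all 8 lists. The lists also differed in length, with 36738 and 38955 peaks for IL-4 PT/LPS, 26305 and 26820 for ctrl/LPS, 11026 and 10253 for IL-4 PT/ctrl and 9706 and 9556 for ctrl/ctrl. With only the 26305 highest peaks of each LPS list and the 9556 highest of each list without LPS, a choice made after seeing the data, 2993 regions were particular to IL-4 PT/LPS and 1912 to ctrl/LPS. Of the 2993 regions, 2913 were among the 6542.

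**Figure D1:**
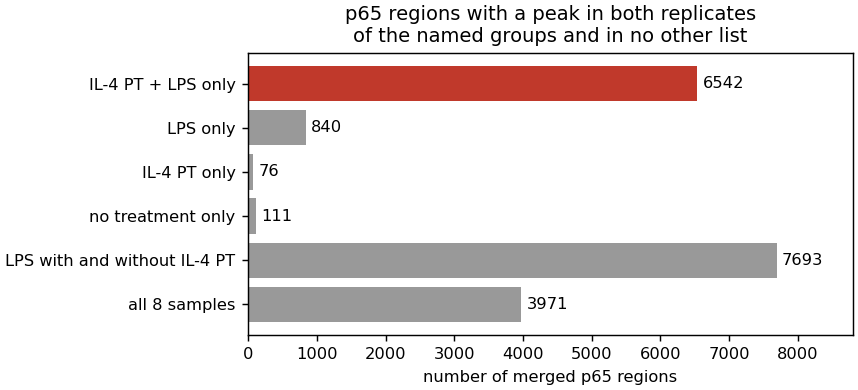
Number of merged p65 regions (x axis) with a peak in both replicates of the named conditions and in no other list. The bar of 6542 regions bound only after IL-4 PT and LPS is second to the 7693 regions bound after LPS with and without IL-4 PT, and the 840 regions of LPS alone are far fewer.

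Most of these peaks were weaker than the average p65 peak. The caller's score for a p65 peak is -log10 of its p- or q-value, so a deeper library gives higher scores at the same enrichment. In the 6542 regions the median score was 6.92 in replicate 1 and 7.48 in replicate 2, against 9.34 and 9.4 over the whole lists and 30.1 and 31.8 in the regions bound in all 8 lists. The scores of the replicates were within 2-fold of each other in 84.6% of regions. A minority were strong, and in 159 regions both scores were at least 20. Just outside the rule lay 3871 regions with peaks in both IL-4 PT/LPS lists and in exactly 1 other list. That other list was ctrl/LPS replicate 1 in 1586 of them and ctrl/LPS replicate 2 in 1684, with median scores there of 5.18 and 5.23. Another 9048 regions had a peak in 1 IL-4 PT/LPS list and in none of the 6 others, with a median score of 4.62. The median of the lower of the 2 IL-4 PT/LPS scores was 5.73 in the 6542 regions. With IL-4 PT/LPS replicate 1 or 2 left out of the rule, it kept 11895 and 10515 regions.

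The cells were checked by RNAPII-pS5 peaks within genes, a reading added after seeing the data. Of 8 macrophage markers, 7 had a peak in all 8 lists of the 4 conditions, with scores from 4.84 to 59.69 over the 8. Of 24 markers of neutrophils, T cells, B cells, dendritic cells, mast cells and basophils, 7 had a peak in at least 1 list and 4 in all 8, with scores from 3.34 to 37.1, and no mast cell or basophil marker had one. At promoters, 3 of the 8 macrophage markers and none of the 24 others had a peak in any list. The part of other cells in the results was not tested.

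The regions lay away from promoters, as the LPS-shared regions did. By the annotation in the files, 3110 (47.5%) were in introns, 2822 (43.1%) were intergenic and 339 (5.18%) were at promoters. Of the LPS-shared regions 5.65% were at promoters, and of all merged p65 regions 10.7%. The median distance to the nearest transcription start site was 24101 bp, against 18348 bp for all merged regions and 21811 bp for the LPS-shared regions. Within 1000 bp of a start site were 8.18% of them and 14.9% of all merged regions. LTR repeats held 9.54% and LINE repeats 7.52%, against 8.19% and 6.18% of all merged regions. Within 10 Kb of an LPS-shared region lay 1177 (18%), and 20.1% of the 840 regions of ctrl/LPS alone.

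Sequence motifs were counted on both strands in the middle 200 bp of each region. The STAT6-type motif, TTC and GAA with 4 bases between them, was found in 716 regions (10.9%), against 8.25% of all merged regions and 7.5% of the LPS-shared regions. The other STAT spacing, TTCNNNGAA, was found in 8.44% of them and in 8.47% of all merged regions. The NF-kB consensus was found in 780 regions (11.9%), against 10.6% of all merged and 10.9% of the LPS-shared regions. The largest gap to the LPS-shared regions was at the AP-1 motif TGANTCA, which was in 22.8% of the regions and in 35.3% of the LPS-shared regions, and in 21.8% of all merged regions. The PU.1 motif AGGAAGT was found in 13.9% of them and in 18.5% of all merged regions. The C/EBP motif TTGCNNAA (13.8% against 14.4%) and the IRF motif, GAAA repeated after 2 bases (6.44% against 6.46%), had shares within 1 percentage point of those over all merged regions. The EGR motif GTGGGCG was found in 241 regions (3.68%), against 2.70% of all merged and 1.49% of LPS-shared regions. Matches of different motifs may overlap, and a match describes letters, not binding. Among the 159 regions with both scores of at least 20, the NF-kB consensus was in 20.1% and the STAT6-type motif in 17%. In the 2484 regions with a score under 5 in a replicate, these shares were 10.3% and 9.94%. AP-1 went the other way, with 13.8% of the 159 regions and 21.9% of the 2484. It was in 24.7% of the 991 regions with a lower score from 10 to 20. PU.1 (13.2% against 14.6%), C/EBP and IRF were also less frequent in the 159 regions, and EGR (5.03% against 3.74%) and TTCNNNGAA more frequent. Motif shares by p65 score were not counted over all merged regions, so these are a description.

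**Figure D2:**
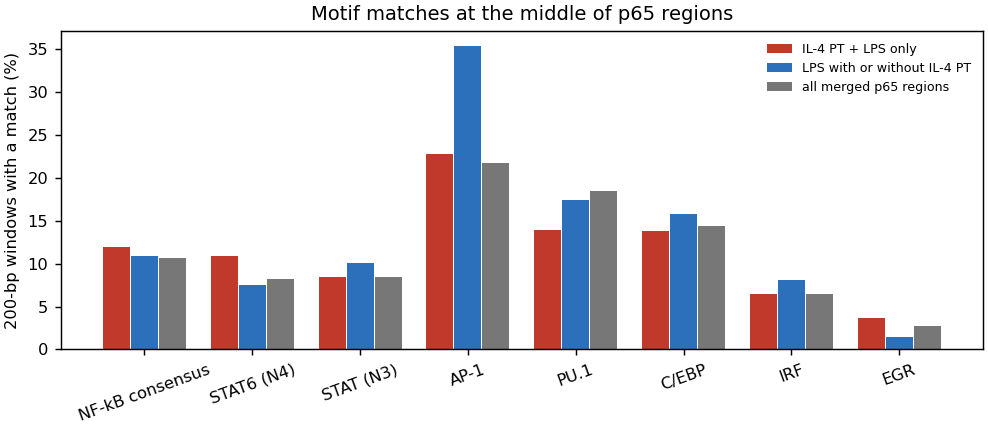
Share of the 200-bp middle windows with at least 1 match (y axis, %) for each motif (x axis), in the regions bound only after IL-4 PT and LPS (red), the LPS-shared regions (blue) and all merged p65 regions (grey). The red bar exceeds both others for the NF-kB consensus (11.9%), the STAT6-type motif (10.9%) and the EGR motif (3.68%), and the blue bar is highest for AP-1 (35.3%).

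The strongest region lay upstream of Edn1, which encodes the vasoconstrictor endothelin 1. It is intergenic, 8164 bp before the start site, with p65 scores of 71.06 and 81.08 under IL-4 PT/LPS. RNAPII-pS5 had peaks of 19.6 and 17.36 there under IL-4 PT/LPS and none in the 6 other samples of the 4 conditions. RNAPII-pS2 had peaks of 45.1 and 29.09 in the same condition and none in the 6 other samples. No PU.1, p300, H3K27Ac or HDAC peak was called there, with or without IL-4 for 1 hr. Against ctrl/LPS, RNAPII-pS5 was higher by 3.53 ± 0.22 on the log2 scale (SE, limma, adjusted p = 0.0023) and RNAPII-pS2 by 4.41 ± 0.29 (adjusted p = 0.00104). These fits set an absent peak to the lowest score of the antibody, 1.44 for RNAPII-pS5 and 1.82 for RNAPII-pS2. The size of such a change depends on that value. A group without peaks has no spread, which makes p-values too small for every region of this kind. A second region of the set lay at the other end of the gene, in the 3' UTR 6025 bp after the start site. Its p65 scores were 8.5 and 2.75, and RNAPII-pS5 peaks of 27.75 and 25.96 and RNAPII-pS2 peaks of 7.39 and 29.18 were again called only under IL-4 PT/LPS.

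The next regions by the lower p65 score had much the same pattern. Itga1 encodes a collagen-binding integrin, and its region, 46634 bp before the gene in an LTR repeat, had p65 scores of 68.92 and 77.26. RNAPII-pS2 peaks of 22.45 and 17.62 and RNAPII-pS5 peaks of 5.83 and 7.22 were called only under IL-4 PT/LPS. p300 was absent in both untreated samples and had peaks of 16.35 and 9.81 after IL-4 for 1 hr. The region before Cyp1b1, which encodes a cytochrome P450 enzyme, had p65 scores of 76.44 and 59.73 and RNAPII-pS2 peaks of 18.94 and 14.47, with no p300 peak in any sample. At 4930581F22Rik p65 scored 44.83 and 35.94, RNAPII-pS2 had peaks of 23.97 and 16.81 only under IL-4 PT/LPS, and p300 had peaks of 18.65 and 21.32 only after IL-4. In the Flt1 region, 52924 bp before the gene of a VEGF receptor, p65 scored 38.45 and 38.18. This was the one region of the top 12 with PU.1 peaks, of 8.16 and 6.28 after IL-4 for 1 hr and none in the untreated samples, and p300 followed with 4.39 and 7.44.

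Not every strong p65 peak carried RNAPII. The regions in the first intron of Dock10, which encodes a guanine nucleotide exchange factor, and in the last intron of Il10rb, which encodes a chain of the IL-10 receptor, had p65 scores of 61.16 and 58.81 and of 50.99 and 56.2. No peak of any other antibody was called in either. The Il10rb region is in a LINE repeat by the files' annotation. The other members of the top 12 were Cuedc1, Tmem154, Atp2a3, Inhba and Spop, with lower p65 scores between 36.71 and 51.34. Over the 12 regions, RNAPII-pS2 had a peak in both IL-4 PT/LPS samples in 8 and in at least 1 of them in 10. RNAPII-pS5 did so in 4 and in 8. In none of the 12 was an RNAPII-pS5 or RNAPII-pS2 peak called in any sample of the 3 other conditions. H3K27Ac was absent from all 12, PU.1 was absent from all 12 in untreated cells, and p300 had peaks in both untreated samples in 1 and in both IL-4 samples in 4.

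**Figure D3:**
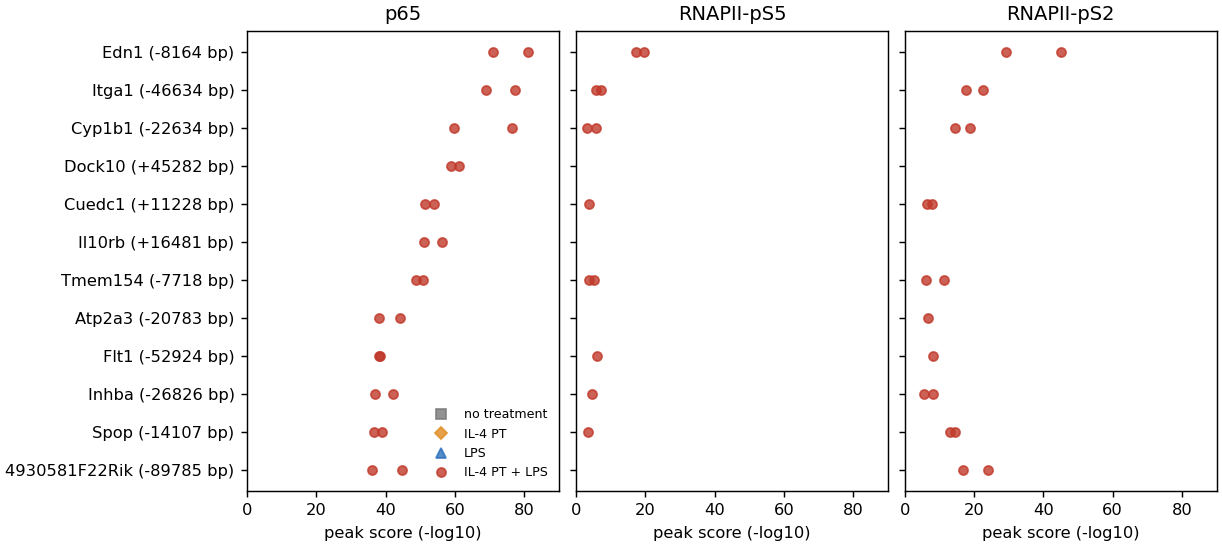
Peak scores (x axis, -log10) of p65, RNAPII-pS5 and RNAPII-pS2 in each sample at the 12 regions with the highest lower p65 score (y axis, gene and distance to its start site), with 1 point per sample that has a peak. Every point is of the IL-4 PT/LPS condition, the lowest p65 score is 35.94 at 4930581F22Rik, and Dock10 and Il10rb have p65 points only.

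RNAPII was then compared over all 6542 regions. RNAPII was measured in other libraries than p65, so its peaks did not enter the rule. Whether these libraries came from separate cultures is not known here. RNAPII-pS2 peaks were called in both samples at 427 regions (6.53%) in ctrl/ctrl, 834 (12.7%) in IL-4 PT/ctrl, 570 (8.71%) in ctrl/LPS and 1711 (26.2%) in IL-4 PT/LPS. Over all merged p65 regions the shares were 31.7%, 30.7%, 37.1% and 39.0%. The regions thus carried RNAPII-pS2 less often than p65 regions as a whole in every condition, and the gap was smallest under IL-4 PT/LPS. In the LPS-shared regions the shares were 55.0% in ctrl/LPS and 56.5% in IL-4 PT/LPS. The 840 regions of ctrl/LPS alone went the other way, with 30.1% in ctrl/LPS and 12.1% in IL-4 PT/LPS. RNAPII-pS5 was rarer, with both samples positive at 4.10% of the regions in ctrl/ctrl, 8.13% in IL-4 PT/ctrl, 2.63% in ctrl/LPS and 8.16% in IL-4 PT/LPS. Over all merged regions these shares were 21.7%, 23.7%, 18.1% and 21.5%, so RNAPII-pS5 was higher in both conditions with IL-4 PT there too. The lists of RNAPII-pS2 were of near equal length, from 25838 to 29235 peaks, while those of RNAPII-pS5 ran from 14476 and 15349 peaks in ctrl/LPS and 17826 and 18207 in IL-4 PT/LPS to 22149 in IL-4 PT/ctrl. The part of these lengths in the RNAPII-pS5 shares was not tested. At 579 regions (8.85%) RNAPII-pS2 had peaks in both IL-4 PT/LPS samples and in no other sample, against 2.99% of all merged regions. The same held for RNAPII-pS5 at 150 regions (2.29%, against 1.54%).

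**Figure D4:**
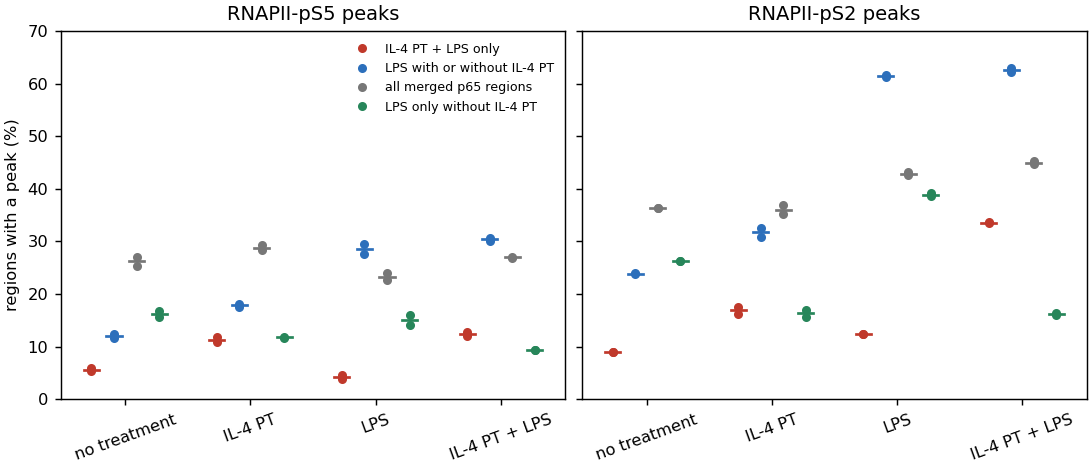
Share of regions with an RNAPII-pS5 (left) or RNAPII-pS2 (right) peak in each sample (points) and the mean of the 2 samples (line), by condition (x axis), for 4 sets of p65 regions. The red points of the regions bound only after IL-4 PT and LPS are highest under IL-4 PT/LPS for RNAPII-pS2, at 33.6% and 33.4%, against 12.3% and 12.4% in ctrl/LPS.

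To test single regions, limma was fitted to log2 scores over all merged regions where 2 or more samples of an antibody had a peak. Of the 6542 regions, 2305 entered the RNAPII-pS2 fit. Against ctrl/LPS, RNAPII-pS2 was higher under IL-4 PT/LPS at 1053 of them and lower at 33 (adjusted p of at most 0.05), while over all 30093 regions fitted 12.7% were higher and 6.84% lower. The 579 regions that entered the fit only through the IL-4 PT/LPS samples had to differ and gave 558 of the 1053 calls, so the count is a description. Among the 570 regions with a peak in both ctrl/LPS samples, 61 were higher and 33 lower, against 798 higher and 2057 lower of 19077 such regions among all merged. Of the 143 regions with a peak in all 8 samples, 8 were called in a limma fit to such regions alone, each of them higher. That fit held 8442 merged regions. The share called over all of them is not given here, so the 8 are a description. With IL-4 PT/LPS replicate 1 or 2 left out, 295 and 299 regions were higher, and 14 were lower with either left out. The number lower also fell to 16 and 15 without ctrl/LPS replicate 1 or 2.

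Pretreatment alone had a smaller count for RNAPII-pS2. Between IL-4 PT/ctrl and ctrl/ctrl, 403 of the 2305 regions were higher and 74 lower, where 10.8% and 8.23% of all regions fitted were called. At 46 regions only both IL-4 PT/ctrl samples had a peak, so these could only be called higher. At 30 only both ctrl/ctrl samples did, so these could only be called lower. LPS after pretreatment raised RNAPII-pS2 at 877 regions and lowered it at 140 (IL-4 PT/LPS against IL-4 PT/ctrl), where 21.1% and 9.22% of all regions fitted were called. Leaving out a sample of IL-4 PT/LPS brought the 877 to 209 and 217, leaving out a sample of IL-4 PT/ctrl brought the 140 to 72 and 69, and leaving out a sample of ctrl/ctrl brought the 403 to 230 and 252 and the 74 to 22 and 26. Without either sample of IL-4 PT/ctrl, 48 were lower. The RNAPII-pS2 response to LPS itself was larger after IL-4 PT at 578 regions and smaller at 79 (interaction term), where 8.63% and 6.24% of all regions fitted were called, and with either IL-4 PT/LPS sample left out no interaction was called. Of the 578, 470 were among the 579 regions that entered the fit only through the IL-4 PT/LPS samples and had to differ. Among the 1345 regions where 2 or more of the other 6 samples had a peak, 79 were larger and 79 smaller, and among the 570 with a peak in both ctrl/LPS samples 27 were larger and 43 smaller. Among all merged regions of these 2 kinds the counts were 1257 and 1877 of 26696, and 488 and 1672 of 19077. For LPS after pretreatment, 539 of the 877 were among the 579 regions that had to differ. Among the 1345 regions 224 were higher and 140 lower, against 4397 and 2774 of 26696 among all merged. The 46 regions with IL-4 PT/ctrl peaks alone could there only be lower, and only smaller in the interaction.

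For RNAPII-pS5, 1038 of the 6542 regions entered the fit. RNAPII-pS5 was higher under IL-4 PT/LPS than under ctrl/LPS at 258 and lower at 7, where 9.39% and 5.96% of all 21162 regions fitted were called. Of the 1038 regions, 150 entered only through the IL-4 PT/LPS samples and gave 137 of the 258 calls. Among the 172 regions with a peak in both ctrl/LPS samples, 11 were higher and 7 lower, against 219 higher and 1261 lower of 9286 among all merged. Without IL-4 PT/LPS replicate 1 or 2, 96 and 72 regions were higher. Before LPS, RNAPII-pS5 was higher with IL-4 PT at 203 regions and lower at 28, where 8.92% and 5.75% of all regions fitted were called. At 97 regions (1.48%, against 1.22% of all merged) only both IL-4 PT/ctrl samples had a peak, so these could only be called higher. At 13 only both ctrl/ctrl samples did, so these could only be called lower. Leaving out ctrl/ctrl replicate 1 or 2 gave 126 and 119 higher and 4 and 6 lower, and leaving out IL-4 PT/ctrl replicate 1 or 2 gave 90 and 73 higher, with 17 lower without replicate 1. Against IL-4 PT/ctrl, RNAPII-pS5 was higher under IL-4 PT/LPS at 230 regions and lower at 173, where 12.3% and 14.5% of all regions fitted were called. Of the 230, 146 were among the 150 regions that had to differ. Among the 721 regions where 2 or more of the other 6 samples had a peak, 58 were higher and 173 lower. Among all merged regions of this kind, 1585 were higher and 3071 lower of 18838. Of the 721, the 97 with IL-4 PT/ctrl peaks alone could only be lower here and only smaller in the interaction. The 230 became 50 and 54 without IL-4 PT/LPS replicate 1 or 2, against 158 and 139 lower, and the 173 became 63 and 60 without IL-4 PT/ctrl replicate 1 or 2. The response to LPS was larger after IL-4 PT at 151 regions and smaller at 103, where 7.62% and 7.66% of all regions fitted were called. These became 18 and 55 without IL-4 PT/LPS replicate 1, and no interaction was called without replicate 2. Of the 151, 112 were among the 150 regions that had to differ. Among the 721 regions 35 were larger and 103 smaller, against 980 and 1620 of 18838 such regions among all merged. Comparisons that share a condition are not independent of one another.

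Regions with stronger p65 peaks had RNAPII-pS2 more often under IL-4 PT/LPS and less often under ctrl/LPS. With a lower p65 score under 5 (2484 regions), both IL-4 PT/LPS samples had an RNAPII-pS2 peak at 20.7% and both ctrl/LPS samples at 10.5%. From 5 to 10 (2908 regions) the shares were 25.1% and 8.43%, and from 10 to 20 (991 regions) 38.2% and 6.05%. At 20 or more (159 regions) they were 54.1% and 2.52%, with 0.629% in ctrl/ctrl and 13.8% in IL-4 PT/ctrl. Of all merged regions with both IL-4 PT/LPS p65 peaks, 3103 of 5722 entered the RNAPII-pS2 fit at a lower score under 5. At 20 or more 6552 of 7321 did, so RNAPII-pS2 peaks in 2 or more samples were more frequent at stronger p65 peaks in general. Shares by condition were not counted for these merged regions, so whether the same held there was not tested. RNAPII-pS5 in the 159 regions was found in both samples at 17.6% under IL-4 PT/LPS, 5.66% under IL-4 PT/ctrl and at no region in ctrl/LPS or ctrl/ctrl. In the 2913 regions kept at equal list length, RNAPII-pS2 was found at 32.9% under IL-4 PT/LPS and 7.42% under ctrl/LPS. Of these, 1113 entered the RNAPII-pS2 fit, with 692 higher and 7 lower than in ctrl/LPS, where 12.7% and 6.84% of all regions fitted were called. Those that entered only through the IL-4 PT/LPS samples had to be higher, so this count too is a description. RNAPII-pS2 under IL-4 PT/LPS was found at 29.5% of the regions with the STAT6-type motif and at 25.7% of those without it. Intergenic regions (27.6%) and introns (25%) had similar shares. At promoters the shares were 29.2% in ctrl/ctrl, 25.4% in IL-4 PT/ctrl, 20.4% in ctrl/LPS and 28.3% in IL-4 PT/LPS, so RNAPII-pS2 there was about as frequent with no stimulus as with both.

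**Figure D5:**
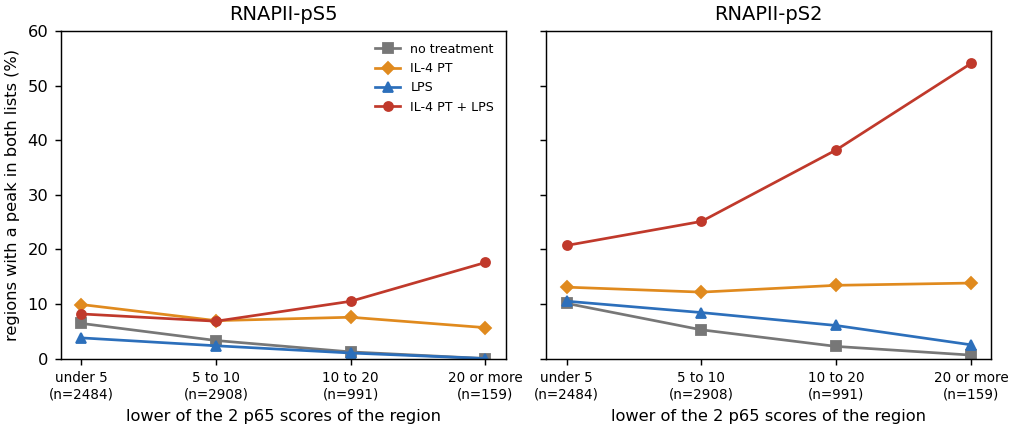
Share of regions with an RNAPII-pS5 (left) or RNAPII-pS2 (right) peak in both samples (y axis, %) by the lower of the 2 p65 scores of the region (x axis), with 1 line per condition. For RNAPII-pS2 the IL-4 PT/LPS line goes from 20.7% to 54.1%, and the ctrl/LPS line from 10.5% to 2.52%.

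The largest RNAPII-pS2 rises were at regions where IL-4 PT alone had left a peak. At Gm20098, 285664 bp from the annotated start site, RNAPII-pS2 was absent in ctrl/ctrl and ctrl/LPS, had peaks of 36.49 and 36.8 in IL-4 PT/ctrl and of 67.19 and 57.16 in IL-4 PT/LPS. The change against ctrl/LPS was 5.19 ± 0.24 on the log2 scale (adjusted p = 0.00104), and IL-4 PT alone had raised it by 4.41 ± 0.24 (adjusted p = 0.00101). Ly86, which encodes a protein of the Toll-like receptor complex RP105/MD-1, was the gene nearest to a region with RNAPII-pS2 peaks of 11.92 and 8.34 in IL-4 PT/ctrl and of 50.24 and 58.66 in IL-4 PT/LPS. Before Cyp4f17 the peaks were 8.56 and 8.45 and then 46.51 and 57.33. In these 3 regions no RNAPII-pS2 peak was called in any of the 4 samples without IL-4 PT. The same was seen 22275 bp before the start site of Runx2, which encodes a runt-domain transcription factor, in an intron of the neighbouring gene Supt3. RNAPII-pS2 there had peaks of 9.54 and 10.49 in IL-4 PT/ctrl and 48.07 and 43.99 in IL-4 PT/LPS, and RNAPII-pS5 of 8.99 and 8.32 in IL-4 PT/LPS alone. LPS after pretreatment raised RNAPII-pS2 at Runx2 by 1.97 ± 0.23 (log2, adjusted p = 0.00152).

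RNAPII-pS5 was also higher at regions with weaker p65 peaks. In a 3' UTR near Tnfaip2, RNAPII-pS5 had peaks of 32.17 and 36.89 in IL-4 PT/LPS and none in the 6 other samples. In the untreated samples of the 1 hr experiment, however, the same region had peaks of 41.45 and 26.42, so the absence of a peak in ctrl/ctrl did not hold in both experiments. In the region before Anxa2, which encodes annexin A2, RNAPII-pS5 peaks were 29.29 and 20.22 in IL-4 PT/LPS and 3.46 in 1 sample of IL-4 PT/ctrl, and untreated samples of the 1 hr experiment had peaks of 7.7 and 8.05. Wtap and Ptp4a2 had RNAPII-pS5 peaks from 18.8 to 28.38 and RNAPII-pS2 peaks from 15.48 to 22.96 in IL-4 PT/LPS and in no other of the 4 conditions.

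RNAPII was lower at few of the regions. At Zfp667, 1024 bp before the start site, RNAPII-pS5 had peaks of 14.25 and 17.91 in IL-4 PT/ctrl and of 7.22 and 9.19 in ctrl/LPS, and none in ctrl/ctrl or IL-4 PT/LPS. It fell by 2.65 on the log2 scale against ctrl/LPS (SE 0.24, adjusted p = 0.00264). In an intron of Birc3, which encodes an inhibitor of apoptosis that NF-kB induces, RNAPII-pS5 peaks were 10.74 and 7.19 in ctrl/LPS and 3.24 in 1 sample of IL-4 PT/LPS. Rhoa (6.32 and 5.98) and Nans (5.65 and 5.68) had RNAPII-pS5 peaks in ctrl/LPS alone, and their calls were lost when peaks with a score under 5 were left out. RNAPII-pS2 near Slc25a31 had peaks of 39.25 and 32.95 in ctrl/ctrl, 18.66 and 32.36 in IL-4 PT/ctrl, 18.13 and 18.72 in ctrl/LPS and none in IL-4 PT/LPS, a fall of 3.24 against ctrl/LPS (log2, SE 0.29, adjusted p = 0.0012). At the promoter of Fam212a, RNAPII-pS2 peaks of 31.41 and 25.38 in ctrl/ctrl, 16.27 and 22.15 in IL-4 PT/ctrl and 6.47 and 21.89 in ctrl/LPS were followed by none in IL-4 PT/LPS. That call too was lost when peaks with a score under 5 were left out. At a region 128559 bp from Ahr, the gene of the aryl hydrocarbon receptor, RNAPII-pS2 had peaks of 12.64 and 11.02 in ctrl/LPS and none in IL-4 PT/LPS. p65 peaks at these 7 regions were weak, with a lower score of at most 4.62.

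Most of the regions had no PU.1 peak in untreated cells or after IL-4 for 1 hr. PU.1, p300, H3K27Ac and the HDACs were not measured here after 24 hr of IL-4 or after LPS. PU.1 had peaks in both untreated samples at 983 regions (15%) and in both samples after IL-4 for 1 hr at 1192 (18.2%), against 41.0% and 43.6% of all merged regions. At 4583 regions (70.1%) no PU.1 peak was called in any of the 4 lists, against 42.8% of all merged regions. In limma, 1508 regions entered the PU.1 fit, and 0 were higher or lower after IL-4, as 0% of all 25770 regions fitted were called in either direction. In simulated data this fit found 0 of 100 changes of 2 log2 units and 35 of 100 changes of 4. The count of 0 therefore cannot tell whether PU.1 changed. At an unadjusted p of at most 0.05, 217 were higher and 90 lower, where 6.96% and 4.69% of all regions fitted passed. The 147 regions with PU.1 peaks in both IL-4 samples and in neither untreated sample held the STAT6-type motif in 43.5% of cases and the NF-kB consensus in 2.72%. In the 983 regions with PU.1 in both untreated samples, the shares were 9.66% and 2.85%, and in the 4583 regions without PU.1 they were 9.69% and 15.5%. The PU.1 pattern of the 147 regions (2.25%) was found at 929 (1.81%) of all merged regions. Motif shares by PU.1 pattern were not counted over all merged regions, so they are a description. In the 4583 regions without PU.1, RNAPII-pS2 under IL-4 PT/LPS was found at 21.4%, and under ctrl/LPS at 4.78%. The shares over all merged regions without PU.1 are not given here.

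p300 was the most frequent of the other proteins. It had peaks in both untreated samples at 1881 regions (28.8%) and in both IL-4 samples at 2909 (44.5%), against 56.9% and 68.5% of all merged regions. One untreated p300 list was short, with 44787 peaks against 66710 to 69360 in the 3 others. In the longer untreated list 44.8% of the regions had a peak, against 47.0% and 48.5% in the IL-4 lists. The difference between the treatments was thus smaller without the short list. At 432 regions (6.6%) p300 had peaks in both IL-4 samples and in neither untreated sample, against 3.04% of all merged regions. Of 3174 regions that entered the p300 fit, 312 were higher after IL-4 for 1 hr and 59 lower, where 5.06% and 1.31% of all 36888 regions fitted were called. Without the short untreated replicate 1, 430 were higher and 7 lower. Without untreated replicate 2, 713 were higher and 89 lower, and with an IL-4 sample left out no region was called in either direction. At a region near Fabp5, which encodes a fatty acid-binding protein, p300 was absent in untreated cells and had peaks of 50.18 and 56.65 after IL-4, a rise of 4.41 ± 0.61 (log2, adjusted p = 0.036). PU.1 appeared there too, with 7.14 and 3.57 after IL-4 only.

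Acetylation and the deacetylases were rare at these regions. H3K27Ac had peaks in both untreated samples at 1013 regions (15.5%) and in both IL-4 samples at 992 (15.2%), against 38.3% and 37.4% of all merged regions. Of 1205 regions fitted, H3K27Ac was higher after IL-4 at 269 and lower at 264, where 20% and 24.4% of all 21596 regions fitted were called. Without untreated replicate 1 or 2 these counts were 173 and 170 higher and 69 and 73 lower, and without IL-4 replicate 1 or 2 they were 110 and 103 higher and 175 and 178 lower. HDAC1 peaks in both samples were found at 7.03% of the regions untreated and at 4.92% after IL-4, HDAC2 at 4.83% and 5.78%, and HDAC3 at 1.45% and 2.87%. Over all merged regions these shares were 31.3% and 24.7% for HDAC1, 25.5% and 25.8% for HDAC2, and 13% and 17% for HDAC3. The labels and the study's ChIP methods give the same antibody catalogue code for HDAC3 as for H3K27Ac. The study's key resources give HDAC3 a code of its own. Which protein the HDAC3 lists show is thus unsure.

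The regions were nearest to 4336 genes, of which 3043 had 1 region, 797 had 2 and 496 had 3 or more. The members of 7 gene lists were counted, by the gene that the files name for each region. Growth and vasoactive factor genes held 46 regions (0.703%) at 18 of 22 genes, against 0.395% of all merged regions. Alternative activation genes held 39 (0.596%) at 21 of 30 genes, against 0.492%. AP-1, EGR, IRF and STAT factor genes held 51 (0.780%, against 0.836%), lipid mediator and nuclear receptor genes 21 (0.321%, against 0.342%) and NF-kB subunit and inhibitor genes 21 (0.321%, against 0.428%). Inflammatory cytokine and chemokine genes held 20 regions (0.306%, against 0.360%) and Toll-like receptor pathway genes 16 (0.245%, against 0.268%). Growth factor genes thus had a larger share here than over all p65 regions. Of their 46 regions, however, 12 were named for Inhba alone, up to 747189 bp from its start site, against 25 of 203 over all merged regions. Alternative activation genes had a slightly larger share, and the other 5 lists a smaller one. These shares were not tested.

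Among the ligands, the inhibin subunit gene Inhba, whose product forms activin A, stood beside Edn1. Its region 26826 bp before the start site had p65 scores of 36.85 and 42.15 and RNAPII-pS2 peaks of 8.06 and 5.55 only in IL-4 PT/LPS, and holds a STAT6-type and a PU.1 motif. A nearer region, 7534 bp before the start site, had p65 scores of 22.08 and 21.35 and RNAPII-pS2 peaks of 6.54 and 5.54. Over the growth and vasoactive list, RNAPII-pS2 was higher than in ctrl/LPS at 13 of 22 regions fitted and lower at 1, and RNAPII-pS5 was higher at 6 of 12 and lower at none. Over all merged regions of the same genes, RNAPII-pS2 was higher at 29 of 127 and lower at 7.

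The cytokine genes had few regions, and most carried no RNAPII-pS2 peak in a pair of samples. Regions that entered the fit only through the IL-4 PT/LPS samples had to differ in these lists too. RNAPII-pS2 was higher at 7 of 7 regions fitted, where the same list over all merged regions had 18 higher and 12 lower of 115, and none of the regions entered the RNAPII-pS5 fit. Near Ccl4, which encodes a chemokine for monocytes, p65 scored 18.73 and 21.5, and RNAPII-pS2 had peaks of 7.14 and 11.49 in IL-4 PT/LPS alone. p300 at this region had a peak of 9.93 in 1 of 2 untreated samples and peaks of 45.03 and 40.33 after IL-4, a rise of 2.74 ± 0.42 (log2, adjusted p = 0.0418). Before Il1b, the gene of interleukin 1 beta, p65 scored 13.93 and 14.31 and RNAPII-pS2 7.47 and 4.51, 29309 bp from the start site. The strongest cytokine region, 2942 bp before Il27, had p65 scores of 26.09 and 35.24 and no peak of any other antibody.

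Over the alternative activation list, RNAPII-pS2 and RNAPII-pS5 were each higher at 8 of 15 regions fitted and lower at none. Over all merged regions of these genes, RNAPII-pS2 was higher at 43 and lower at 8 of 161, and RNAPII-pS5 at 27 and 9 of 126. Near Ccl24, an IL-4-induced eotaxin gene, p65 scored 23.3 and 37.62, with no peak of any other antibody. Irf4, which encodes an interferon regulatory factor of alternative activation, had a region 39109 bp after its start site with p65 scores of 16.66 and 17.5. RNAPII-pS5 there had peaks of 5.52 and 8.12 in IL-4 PT/ctrl and 6.08 and 9.74 in IL-4 PT/LPS. RNAPII-pS2 had peaks of 16.35 and 16.91 in IL-4 PT/LPS alone. Neither form had a peak in ctrl/ctrl or ctrl/LPS, while an untreated sample of the 1 hr experiment had an RNAPII-pS5 peak of 6.81. Over the AP-1, EGR, IRF and STAT list, RNAPII-pS2 was higher at 8 of 15 regions and RNAPII-pS5 at 5 of 13, and no region was lower. All merged regions of these genes gave RNAPII-pS2 higher at 32 and lower at 23 of 274, and RNAPII-pS5 at 24 and 18 of 205.

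The signaling genes of the NF-kB and Toll-like receptor pathways had few regions in the fits. Tnfaip3 encodes A20, an inhibitor of NF-kB signaling, and its region, 28181 bp after the start site, had p65 scores of 15.13 and 26.01 and RNAPII-pS2 peaks of 10.29 and 7.98 in IL-4 PT/LPS alone. Both regions in introns of Nfkb1, which encodes the p50 precursor, had p65 peaks (14.47 and 23.32 in one, 10.46 and 10.93 in the other). RNAPII-pS2 had a single peak of 4.19 in 1 sample there. In the NF-kB list RNAPII-pS2 was higher at 3 of 8 regions and lower at none, and RNAPII-pS5 was lower at 1 of 4 and higher at none. All merged regions of the list gave RNAPII-pS2 higher at 16 and lower at 10 of 142, and RNAPII-pS5 at 8 and 5 of 107. In the Toll-like receptor list no region of 3 fitted was called for either antibody, and over all merged regions RNAPII-pS2 was higher at 8 and lower at 6 of 89. Traf6, an adaptor of the pathway, and the receptor genes Tlr1 and Tlr2 had the strongest p65 peaks of that list, with scores from 9.18 to 16.85. Of the lipid genes, Ptgs2, the gene of the inducible cyclooxygenase, had RNAPII-pS2 peaks of 10.87 and 11.69 in IL-4 PT/LPS alone at a region 66791 bp away. RNAPII-pS2 was higher at 2 of 6 regions fitted in the lipid list, and over all its merged regions at 13 of 103, with 5 lower. Over all 2305 fitted members RNAPII-pS2 was higher at 45.7%, so the counts of these lists are not results about their genes.

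By the lists of IL-4-regulated and LPS-induced genes that the study made from its own RNA data, which are not independent of these cells, the regions fell near every class. IL-4-repressed genes (cluster E) held 401 regions (6.13%, against 7.23% of all merged regions) and IL-4-induced genes of clusters A and D held 47 (0.718%, against 0.473%) and 332 (5.07%, against 3.85%). Clusters B and C, also induced, held 169 (2.58%, against 2.11%) and 231 (3.53%, against 3.59%). LPS-induced genes whose response IL-4 attenuated held 361 regions (5.52%, against 7.20%), those it did not change 471 (7.20%, against 7.21%) and those it elevated 139 (2.12%, against 1.80%). The share was thus smaller than over all p65 regions near repressed and attenuated genes, and these shares were not tested. RNAPII-pS2 was higher than in ctrl/LPS at 59 of 133 fitted regions near attenuated genes and at 22 of 54 near elevated ones, shares near the 45.7% of all fitted members. In all merged regions of these classes it was higher at 218 of 2255 and at 98 of 545.

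Some genes were flanked by many regions. Inhba was the nearest gene of 12 of them, of 25 merged p65 regions named for it, over 826656 bp of chromosome 13 from 79142 bp before its start site to 747189 bp after it. Their lower p65 scores ran from 3.14 to 36.85, and RNAPII-pS2 was in both IL-4 PT/LPS samples at 4 of the 12 and in both ctrl/LPS samples at 0. H2afy3, a transcribed pseudogene in RefSeq, also had 12 regions, of 46, with scores from 3.10 to 11.31. Several of the 12 were annotated to introns of another transcript. p300 was in both samples at 4 of the 12 untreated and at 9 after IL-4, and RNAPII-pS2 was at 1 in ctrl/LPS and at 6 in IL-4 PT/LPS. Dock10 had 11 regions of 39 over 219969 bp, with scores from 2.85 to 58.81, and RNAPII-pS2 at 2 of them in IL-4 PT/LPS and at 0 in ctrl/LPS. Gm17746 and 3110015C05Rik had 10 regions each, of 48 and 24. The nearest start site need not be that of the gene a region acts on.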

How the data were processed

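ChIP-seq of 9 antibodies was performed in 28 groups of 2 samples, 56 in all. Per the labels and the study's methods, the authors cross-linked cells with DSG and formaldehyde, aligned reads to mm10 with BWA 0.7.10, and called peaks per sample with MACS2 2.0.10 (q of at most 0.01), or HOMER 4.2 for H3K27Ac, with SAMtools 0.1.19 also in the submitters' processing notes. Blacklisted regions were removed, and the input control is not given in the sources used here. The deposited MACS2 score is a -log10 p- or q-value, which of the 2 is not stated, and the deposited H3K27Ac value is a signal of normalized tags. Both grow with depth, which is unknown, and peak numbers stand in for it. A q of at most 0.01 would leave no MACS2 score under 2. The lowest scores of the p65 lists were 1.31 to 1.46, however, with at most 0.127% of the peaks of a list under 2. The cut-off of the deposited lists is thus unsure.

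Peaks were merged and counted with Python 3.11.15 and pandas 2.3.3. Occupancy needed an overlap of at least 1 bp, and location and nearest gene were those of the files. limma 3.58.1 in R 4.3.3 was fitted per antibody to the log2 of the highest score in each region, with an absent peak at the lowest score of the antibody, centred on the median of regions with a peak in all samples. Regions with a peak in at least 2 samples were fitted, p-values were adjusted by Benjamini-Hochberg over all of them, and an adjusted p of at most 0.05 was a call. The script was tested on simulated data. Sequences came from the mm10 reference. The members and lists were chosen with earlier results of these data known. Named regions were the 12 with the highest lower p65 score, up to 3 per gene list by that score, the 6 largest rises and 4 largest falls of RNAPII-pS5 and 3 of each of RNAPII-pS2, and the 5 genes with most regions. A region that this rule named is not reported here. Other lists of the study were counted by symbol. Of the 1 hr experiment, 4 lists (RNAPII-pS2) were not used, because their peak names carry the opposite treatment to the labels. Alternatives were a score of at least 5, a peak in every sample, another overlap, no centring, unadjusted p-values, a replicate block and leaving out each sample.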

Additional observations from a re-analysis of the deposited data

Results flagged for a closer look

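The change that LPS made in RNAPII differed between cells with and without IL-4 PT at part of the 6542 regions, by the interaction term of the limma fit (adjusted p of at most 0.05). For RNAPII-pS2 the response to LPS was larger after IL-4 PT at 578 of 2305 regions fitted and smaller at 79, where 8.63% and 6.24% of all regions fitted were called. For RNAPII-pS5 it was larger at 151 and smaller at 103 of 1038 regions, where 7.62% and 7.66% of all regions fitted were called. Of the larger responses, 470 for RNAPII-pS2 and 112 for RNAPII-pS5 were at regions that entered the fit only through the IL-4 PT/LPS samples and so had to differ. Among the regions where 2 or more of the other 6 samples had a peak, RNAPII-pS2 was larger at 79 and smaller at 79, and RNAPII-pS5 larger at 35 and smaller at 103. Over all merged regions of this kind the counts were 1257 and 1877 of 26696 for RNAPII-pS2, and 980 and 1620 of 18838 for RNAPII-pS5. Of the 6542 regions, 46 for RNAPII-pS2 and 97 for RNAPII-pS5 had peaks in the IL-4 PT/ctrl samples alone and could only be smaller. For the Edn1 region 8164 bp before the gene, the difference in response was 3.52 ± 0.31 for RNAPII-pS5 and 4.34 ± 0.40 for RNAPII-pS2 (log2, limma, adjusted p = 0.00912 and 0.00809). The RNAPII-pS2 counts fell to 0 larger and 0 smaller without either IL-4 PT/LPS sample. The RNAPII-pS5 counts were 18 larger and 55 smaller without replicate 1 of IL-4 PT/LPS, and 0 and 0 without replicate 2.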

How the results depend on the processing

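Counts below are of the 6542 regions, higher first and lower second (for the interaction, larger and smaller). With only peaks of a score of at least 5, RNAPII-pS5 was higher under IL-4 PT/LPS than ctrl/LPS at 93, IL-4 PT against ctrl/ctrl gave 93 higher, IL-4 PT/LPS against IL-4 PT/ctrl gave 111 and 103, and the interaction 32 and 29. For RNAPII-pS2 the same setting gave 19 lower against ctrl/LPS, 234 and 42 for IL-4 PT against ctrl/ctrl, 484 higher against IL-4 PT/ctrl and 249 and 17 for the interaction. It gave 8 and 1 for PU.1 and 130 lower for p300. With a peak in every sample, RNAPII-pS5 gave 11 and 0, 3 and 1, 8 and 3, and 0 and 0 for the interaction, of 63 regions fitted. RNAPII-pS2 gave 8 and 0, 22 and 5, 9 and 10, and 1 and 0 for the interaction, of 143 regions, and p300 gave 207 and 187 of 1790. By construction fewer regions were tested, and the shares called over all such merged regions are not given here. At an unadjusted p of at most 0.05, RNAPII-pS5 was lower at 18 against ctrl/LPS and at 47 for IL-4 PT against ctrl/ctrl, RNAPII-pS2 at 58 and 120, and the RNAPII-pS2 interaction was smaller at 145. PU.1 gave 217 and 90, and p300 834 and 355. With 50% of the region covered, RNAPII-pS5 was lower at 17 for IL-4 PT against ctrl/ctrl, and p300 gave 193 and 31. Without centring p300 was lower at 5.

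Deviations of same-numbered samples correlated between -0.026 and 0.094 over the 5 antibodies, so the scores showed little pairing by replicate number. Such low values cannot tell whether same-numbered samples shared a culture. With the replicate block, the RNAPII-pS5 interaction was larger at 85, the RNAPII-pS2 interaction smaller at 44, and p300 gave 199 and 16.

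With each sample left out in turn, where the lone sample left is assumed to vary like the others, RNAPII-pS5 against ctrl/LPS ranged from 72 to 267 and from 5 to 9, IL-4 PT against ctrl/ctrl from 73 to 222 and from 4 to 26, against IL-4 PT/ctrl from 50 to 225 and from 60 to 178, and the interaction from 0 to 74 and from 0 to 61. RNAPII-pS2 ranged from 295 to 1054 and from 14 to 35, from 230 to 422 and from 22 to 75, from 209 to 876 and from 69 to 132, and from 0 to 456 and from 0 to 33. PU.1 stayed at 0, p300 ranged from 0 to 713 and from 0 to 89, and H3K27Ac from 103 to 173 and from 69 to 178. The number of regions ranged from 6605 to 11895.

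With a score of at least 5 in both IL-4 PT/LPS lists 4058 regions remained, 938 with 9556 peaks from each list and 2993 at equal lengths by LPS. No single named change turned its sign, but the balance of higher to lower counts did. It went to 50 and 158 or 54 and 139 for RNAPII-pS5 against IL-4 PT/ctrl without replicate 1 or 2 of IL-4 PT/LPS, to 18 and 55 for the RNAPII-pS5 interaction without replicate 1 of IL-4 PT/LPS and 41 and 42 without replicate 2 of ctrl/ctrl, and to 9 and 10 for RNAPII-pS2 against IL-4 PT/ctrl with a peak in every sample. H3K27Ac (269 and 264) went to 110 and 175 or 103 and 178 without an IL-4 sample, and to 239 and 296 without centring, 193 and 242 with a peak in every sample, 192 and 213 with the peaks of lowest signal left out and 311 and 321 at an unadjusted p. The causes were not tested beyond the fewer regions or samples named. Of the other settings, 141 values stayed within 1.5 times or kept their call. The 3 named calls lost were Rhoa (fell by 0.47), Nans (fell by 0.35) and Fam212a (fell by 1.14), on the log2 scale. Without depth, an absent peak cannot be told from a weak one.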
